A study of Mus musculus with 4 samples.

Results

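Summits of a Fos CUT&Tag peak list from mouse colon were examined at microRNA genes. A summit, the base of highest fragment pileup within a called region, was included where it lay on an autosome within 500 bp of a gene annotated as a microRNA in the mm10 gene table. The rule took 323 of the 178981 summits of the list, and these lay beside 228 of the 1136 autosomal microRNA genes. The rule used position only, so fold, host gene and kind of microRNA were free to vary among the members.

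The study mapped Fos in colonic mucosa of wild-type mice, scraped from the colon after incubation with EDTA, and asked where Fos was bound in recovered and in healthy tissue. The colitis recovered group, 2 libraries, came from mice given 1 to 1.5% dextran sulfate sodium (DSS) in drinking water. It was given in 3 cycles of 7 days with and 10 days without it, and the mice were killed 22 days after the last DSS. The healthy control group was also 2 libraries. All 4 libraries carried the same batch label. CUT&Tag directs the transposase Tn5 to an antibody bound in nuclei, here against Fos, and sequences the fragments it cuts. The deposited list was 1 list for the whole series with no value per library, so the recovered and the healthy group could not be compared, no replicate error could be given and no test was made. No library with a control antibody was used here, and the part of open chromatin cut without Fos was not tested. Nuclei of all cell types in the scraped mucosa were pooled, so a site open in few cells and a site weakly bound in many cannot be told apart.

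MicroRNAs are short RNAs cut from a hairpin within a longer primary transcript, and they repress mRNAs that pair with their seed, the bases near their 5′ end. Many hairpins lie in introns of protein-coding genes and are made from the host transcript, while others have transcripts of their own. Fos is a subunit of AP-1, a transcription factor induced by growth and stress signals that binds promoters and enhancers as a dimer with Jun proteins. In the intestinal epithelium, miR-192, miR-194 and miR-215 are abundant, and the miR-200 family (miR-200a, miR-200b, miR-200c, miR-141 and miR-429) holds down the Zeb repressors of epithelial genes.

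The mature RNAs of the miR-192, miR-194 and miR-200 families are printed because several loci with a summit encode the same seed, and miR-203 is printed as an epithelial microRNA with another seed. Sequences are from RefSeq (GRCm38.p6), 5′ to 3′, with the seed (bases 2 to 8) in capitals.
mmu-miR-192-5p: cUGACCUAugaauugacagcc
mmu-miR-215-5p: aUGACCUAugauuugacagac
mmu-miR-194-5p: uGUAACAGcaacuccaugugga
mmu-miR-200b-3p: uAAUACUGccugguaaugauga
mmu-miR-200c-3p: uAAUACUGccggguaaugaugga
mmu-miR-429-3p: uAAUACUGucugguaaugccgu
mmu-miR-200a-3p: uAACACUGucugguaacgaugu
mmu-miR-141-3p: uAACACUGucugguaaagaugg
mmu-miR-203-3p: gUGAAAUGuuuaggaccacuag
The miR-192 and miR-215 seeds were the same, and miR-194 is encoded beside each of them, by Mir194-2 beside Mir192 and by Mir194-1 beside Mir215. The miR-200 family had 2 seeds, 1 shared by miR-200b, miR-200c and miR-429 and the other by miR-200a and miR-141, and both seeds were encoded at each of its 2 loci.

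Of the 1136 autosomal microRNA genes, which were 39 to 147 bp long, 20.1% had a summit within 500 bp (95% Wilson interval 17.8 to 22.5%). The background for this share is the share of autosomal positions with a summit within 540 bp, which spans the same length as a microRNA gene of median length (80 bp) with its flanks, and it was 5.99%. Neighbouring microRNA genes share summits: 27 of the 323 summits lay beside more than 1 gene and 1 summit beside up to 4. Counted as loci, with genes up to 10 kb apart joined, 201 of 895 loci (22.5%, 19.9 to 25.3%) had a summit. There was 1 summit at 124 genes, 2 at 80 genes and 3 at 24 genes, and no gene had more. The 24 genes with 3 summits tied for the most and included Mir192 and Mirlet7b. Intervals cover counting error only, and genes of a cluster are not independent.

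The share differed by place relative to protein-coding genes. MicroRNA genes within 1000 bp of either end of a protein-coding gene, called boundary genes, had a summit in 77 of 140 cases (55%, 46.7 to 63.0%), against 28.4% of boundary positions. Those deeper inside a protein-coding gene had one in 93 of 676 cases (13.8%, 11.4 to 16.6%), against 7.39% of interior positions. Intergenic microRNA genes had one in 58 of 320 cases (18.1%, 14.3 to 22.7%), against 3.83% of intergenic positions. In each place the interval for microRNA genes lay above the share of positions. No genome sequence was at hand, so assembly gaps and bases where reads cannot map were not removed from the positions. Other short noncoding genes had a wider range: 54.7% of tRNA genes, 11.4% of snoRNA genes and 8.81% of snRNA genes had a summit within 500 bp.

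**Figure D1:**
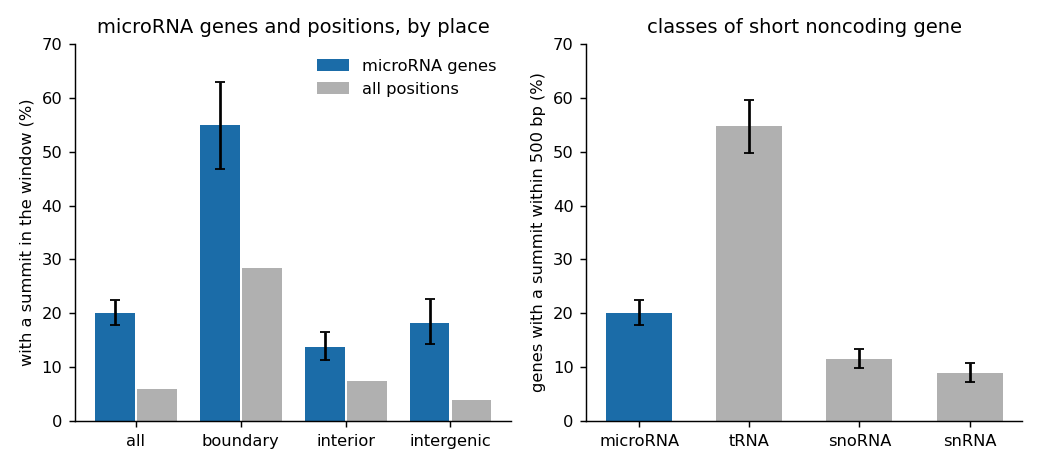
The left panel gives the percent of microRNA genes (blue, 95% Wilson intervals) and of autosomal positions (grey) with a summit in a window of equal median length, by place; boundary microRNA genes stood at 55% and boundary positions at 28.4%. The right panel gives the percent of genes with a summit within 500 bp for microRNA (20.1%), tRNA (54.7%), snoRNA (11.4%) and snRNA (8.81%) genes, with 95% Wilson intervals.

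Host genes were then read. A protein-coding gene held the whole microRNA gene in 781 cases, of which 147 had a summit (18.8%, 16.2 to 21.7%). Another 113 lay only in a long noncoding gene, and 23 of these had a summit (20.4%, 14.0 to 28.7%). The remaining 242 had no host, and 58 had a summit (24.0%, 19.0 to 29.7%). The 3 intervals overlapped. Within protein-coding hosts, 98 of 473 microRNA genes on the host's strand (20.7%) and 16 of 80 on the opposite strand (20%) had a summit. For another 219 hosted genes the strands could not be compared, and 30 of these had a summit (13.7%, 9.77 to 18.9%). The remaining 9 lay in hosts of both strands, and 3 had a summit. At a boundary, 54 of the 105 hosted genes (51.4%, 42.0 to 60.8%) and 21 of the 33 genes with no host (63.6%, 46.6 to 77.8%) had a summit, and these intervals overlapped too.

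Large clusters were nearly bare. The 72 microRNA genes within Sfmbt2, which include the Mir466 and Mir669 families, had no summit within 500 bp, nor had the 39 genes of the cluster in the long noncoding gene Mirg. Of the 16 genes at Meg3 and Rtl1, in the same imprinted region, 4 shared 1 summit with a fold of 2.65. How well reads map within these clusters was not tested. Outside these 3 clusters, 224 of 1009 microRNA genes had a summit (22.2%, 19.7 to 24.9%). The Mir290a to Mir295 cluster and the Mir302 cluster, both known from embryonic stem cells, had none at their 9 and 5 genes.

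The strength of a summit was read as the authors' fold enrichment, the ratio of the pileup to a single background level of 3.16 fragments with 1 added to each. The 323 summits had a median fold of 8.90 (95% interval of the median 7.70 to 10.8), with quartiles of 5.05 and 22.7 and a range of 2.65 to 226. The median corresponded to a pileup of 36 fragments and the range to 10 to 939. The other 176274 autosomal summits had a median fold of 6.73, quartiles of 4.09 and 15.4 and a highest fold of 672. A fold of 20 or more was reached by 91 of the 323 summits (28.2%, 23.6 to 33.3%), against 19.6% of the rest. The 323 summits lay in 206 regions. Counted once per summit, so that a region with several summits counts several times, the median region width was 1500 bp, against 899 bp for the rest. Of the 323 summits, 78.0% shared their region with another summit, against 60.1%.

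Fold was also compared within each place. Boundary summits made up 136 of the 323 (42.1%, 36.8 to 47.6%), against 17.2% of the rest, and interior summits 36.8% against 47.4%. The boundary summits at microRNA genes had a median fold of 12.4 (9.38 to 20.2), against 10.1 for the rest at boundaries. Interior summits had a median of 6.25 in both sets. Intergenic summits at microRNA genes had a median of 9.50 (7.22 to 12.7), against 6.25 for the rest. For 305 summits a distance to a transcript start could be measured, in a table with starts for 16457 of 20665 autosomal protein-coding genes and for none on 1 autosome, so some near starts are missed: 111 of them (36.4%, 31.2 to 41.9%) lay within 1000 bp of a start, against 16.7% of the rest, and their median fold was 13.0, against 7.22 for the members farther away.

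**Figure D2:**
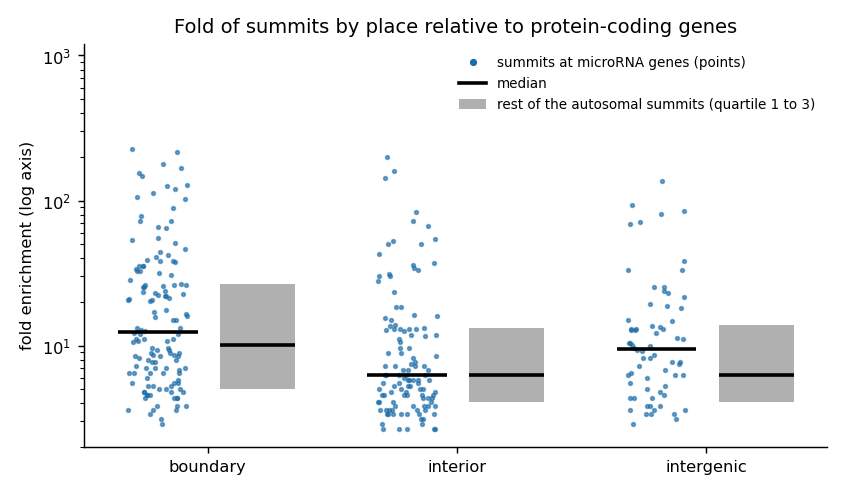
Fold enrichment on a log axis for the 323 summits at microRNA genes (blue points, left of each pair) and for the rest of the autosomal summits (grey boxes from quartile 1 to quartile 3), by place; black lines are medians. The medians coincide for interior summits (6.25) and differ for intergenic ones (9.50 and 6.25).

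Summits were spread through the window. Inside the microRNA gene itself lay 37 summits, with a median fold of 10.6, and 61, 55, 64, 48 and 58 lay in the successive 100 bp steps out to 500 bp. Upstream and downstream could be told for the 980 microRNA genes with a hairpin or mature sequence entry, among which 168 gene and summit pairs were upstream and 127 downstream. The density was 0.424 summits per kb inside the gene (exact 95% Poisson interval 0.294 to 0.593), 0.332 in the 200 bp upstream (0.256 to 0.423) and 0.245 in the 200 bp downstream (0.181 to 0.325). These intervals overlapped one another. At the edge of the window, the last members inside were at Mir130c (496 bp, fold 4.33), Mir6973a (498 bp, 3.61) and Mir6909 (499 bp, 5.77), and the first outside were at Mir7216 (501 bp, 4.81), Mir7075 (502 bp, 21.6) and Mir6948 (502 bp, 3.13).

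**Figure D3:**
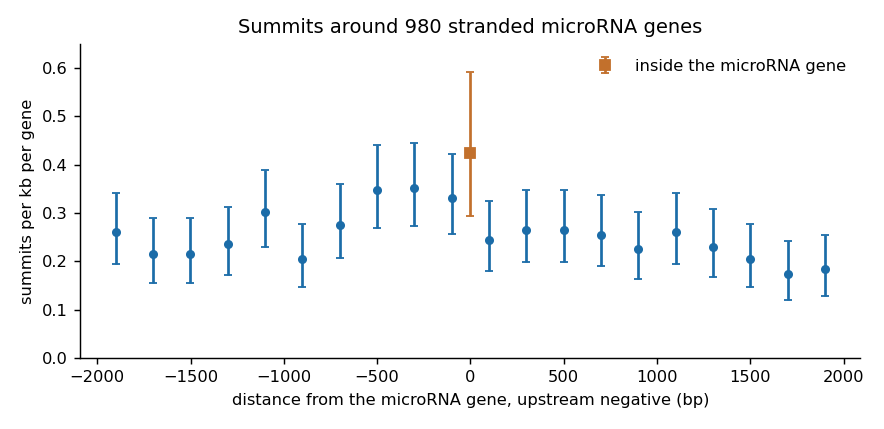
Summits per kb per gene (vertical axis) in 200 bp steps of distance from 980 microRNA genes of known strand, upstream negative, with exact 95% Poisson intervals. The point inside the gene (0.424) and the first upstream step (0.332) have intervals that overlap those of the nearest downstream steps (0.245).

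The 10 microRNA genes with the highest folds reached 137 to 226. The highest fold was at Mir8098 in Wdfy2, where a summit 280 bp upstream reached a fold of 226, from 939 fragments (exact 95% Poisson interval 880 to 1001). The next was inside Mir1956, in the gene of the cap-binding translation factor Eif4e, with a fold of 218 and 904 fragments. Mir7028 in Tchp followed with a fold of 198, and its summit was the only one of the 10 strongest in a region of its own. Mir7238 in Ankrd10 had 179.9, Mir3091 in the ribosomal protein gene Rps21 had 166, Mir7687 in Gse1 had 159 and Mir6917 in the receptor gene Erbb3 had 144. Mir3569, in the long noncoding gene Gm32082, had 147. Mir484, with no host, had a fold of 156 at a summit 210 bp from a start of Marf1. Mir210, which is known as a target of hypoxia-inducible factor, was the only intergenic one, with a fold of 137 at a summit 457 bp upstream. Of these 10 genes, 7 had a protein-coding host, against 68.8% of all autosomal microRNA genes. Their summit was at a boundary for 6, against 42.1% of the 323 summits, and within 1000 bp of a transcript start for 5, against 36.4%. At such genes a host promoter and the microRNA cannot be told apart as the feature beside the summit. None of the 10 was on a list of microRNAs known from a tissue or process.

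Hairpins that hold an AP-1 motif are shown for the 2 of these 10 genes that have one. The motif searched was TGANTCA, which reads the same on both strands apart from its middle base, and its RNA form is in capitals.
Mir1956: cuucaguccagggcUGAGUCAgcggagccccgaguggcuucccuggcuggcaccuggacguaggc
Mir7687: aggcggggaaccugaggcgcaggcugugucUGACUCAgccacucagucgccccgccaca
Mir1956 is at chr3:138526421-138526485 on the plus strand, and the centre of its motif lay 33 bp from the summit. Mir7687 is at chr8:120538696-120538754 on the plus strand, and the centre of its motif lay 111 bp from its strongest summit. Over the 919 hairpins with a sequence in the RefSeq table, 8 of the 201 with a summit held the motif (3.98%, 2.03 to 7.66%), against 20 of the 718 without one (2.79%, 1.81 to 4.26%), and these intervals overlapped. Among 300 bp promoter windows of the annotation, 0 of the 42 with one of the 323 summits inside held the motif (upper limit of the interval 8.38%), against 6.38% of windows with any summit inside (5.92 to 6.87%) and 7.85% of all windows. The related TGACGTCA, a palindrome, was in 0 of 919 hairpins, 1 of those 42 windows, 3.13% of windows with any summit inside and 1.83% of all windows. These are letter matches in the printed windows only.

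MicroRNAs known from epithelia, a list drawn up with earlier results of these data known, had summits more often than microRNA genes as a whole. Of the 22 on that list, 15 had a summit within 500 bp (68.2%, 47.3 to 83.6%), against 20.1% of all autosomal microRNA genes, and as loci 10 of 14 had one, against 201 of 895. A fold of 20 or more was reached at 7 of the 22 (31.8%, 16.4 to 52.7%), against 6.78% of all. The 7 were Mir375, Mir203, Mir192, Mir194-2, Mir429, Mir200a and Mir200b, and they are not independent. Mir192 and Mir194-2 shared the summit, and Mir429, Mir200a and Mir200b lay in the same region. All 7 rested on regions wider than 3000 bp, so none kept such a fold without those regions. Most were intergenic, and 11 of the 16 intergenic ones had a summit, against 58 of 320 intergenic microRNA genes. Their median highest fold was 9.14, near the 9.62 of all genes with a summit. Broad regions bear on this count: at 10 of the 15 the strongest summit lay in a region wider than 3000 bp, against 37 of all 228 genes with a summit (16.2%). Without such regions 22.7% of the list had a summit (10.1 to 43.4%), against 16.8% of all, and with only the strongest summit of each region kept it was 31.8% against 14.3%.

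The Mir192 and Mir194-2 pair had the highest fold of the list. Mir194-2 (chr19:6264643-6264728) and Mir192 (chr19:6264844-6264932), both on the plus strand and intergenic, shared a summit of fold 84.9, from 352 fragments (316 to 391), 174 bp and 375 bp upstream of them. Another summit with a fold of 6.73 lay 23 bp downstream of Mir192, and one with 11.1 lay 464 bp downstream. The region was 4290 bp wide and held 6 summits. Its strongest summit (fold 107) was 1581 bp upstream of Mir192 and so outside the window. At the other copy, Mir194-1 and Mir215, antisense within Iars2, shared 1 summit with a fold of 6.25 (25 fragments, 16.2 to 36.9), and the strongest summit within 10 kb had a fold of 51.2. Both loci that encode the miR-192 and miR-194 seeds had a summit beside the hairpins. The pileup interval of the strongest summit beside Mir192 lay above that of the summit beside Mir215. The intervals of the other 2 beside Mir192, at 27 (17.8 to 39.3) and 45 fragments (32.8 to 60.2), overlapped it. A difference between the loci was not tested.

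Both loci of the miR-200 family had summits at every member. Mir429, Mir200a and Mir200b lie within 2 kb on the minus strand in the long noncoding gene Gm13648, and 1 region of 3597 bp with 6 summits covered them. Mir429 (chr4:156053905-156053987) had a fold of 80.8 (335 fragments, 300.1 to 373) 408 bp upstream and 13.7 downstream. Mir200a (chr4:156054896-156054985) had a summit with a fold of 38.5 inside the hairpin gene, and Mir200b (chr4:156055681-156055750) had one with 25.3. The strongest summit within 10 kb had a fold of 138 and lay 3878 bp upstream of Mir200b. At the other locus, Mir141 had a fold of 9.14 inside the hairpin gene, and Mir200c shared it, with another summit at 8.18. There too a stronger summit stood just outside, with a fold of 73.1 at 594 bp upstream of Mir200c.

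Mir375, known from enteroendocrine and islet cells, had a fold of 70.7 (293 fragments, 260.4 to 328) 296 bp upstream and 12.8 downstream, and no summit within 10 kb was stronger. Mir203, known from differentiating keratinocytes, had folds of 33.4 and 25.5, and the strongest nearby summit, at 145, was 552 bp upstream and so just outside the window. The remaining epithelial members were weaker. Mir802 had a fold of 6.25 inside the hairpin gene, Mir378a in Ppargc1b had 6.01, Mir147 in AA467197 had 4.81 and Mir205, known from stratified epithelia, had 3.61. Mir205 had a summit with a fold of 93.1 at 2855 bp.

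The epithelial microRNAs with no summit within 500 bp were Mir31, Mir34a, Mir34b, Mir34c, Mir182, Mir96 and Mir183. Mir31 had no summit within 10 kb, and its nearest, with a fold of 4.09, was 10871 bp away. The nearest summit to Mir34b, which with Mir34c is a known p53 target, was 48958 bp away, and Mir34a had 2 within 10 kb. The Mir182, Mir96 and Mir183 cluster had none in the window, although a summit with a fold of 102 lay 4048 bp upstream of Mir183. A window of 500 bp around a hairpin does not reach the start of every primary transcript.

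**Figure D4:**
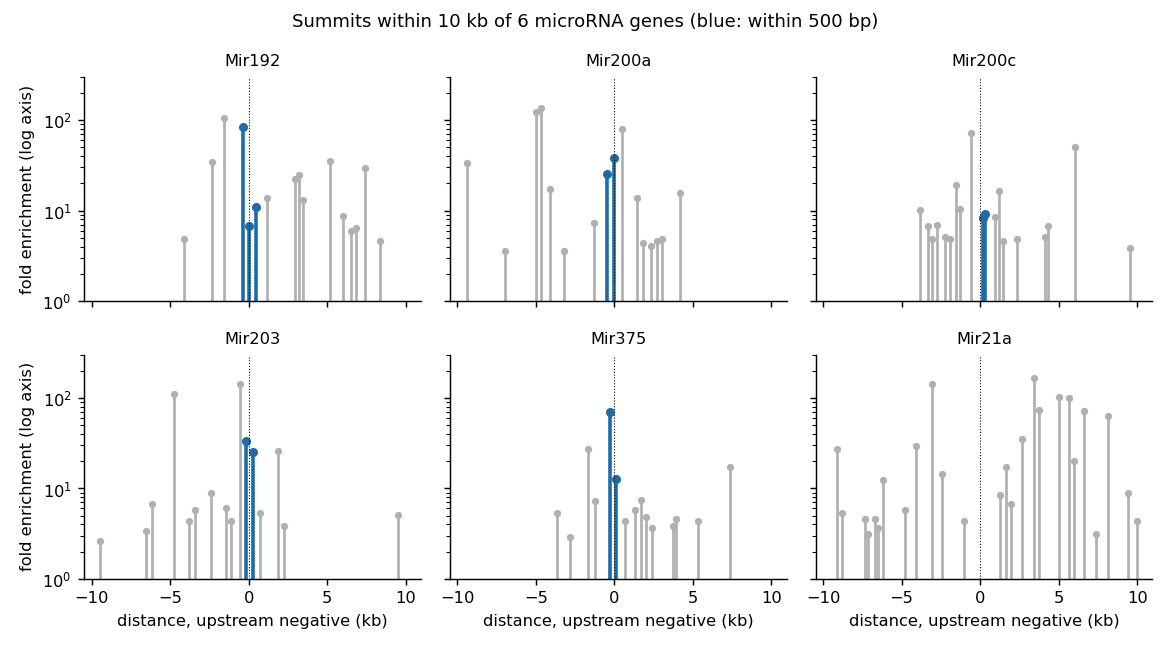
Fold enrichment (log axis) of every summit within 10 kb of 6 microRNA genes against its distance, upstream negative; summits within 500 bp are blue and the others grey. Mir192 and Mir375 have strong summits in the window, Mir200c and Mir203 have stronger ones just outside it, and Mir21a has 26 summits but none in the window.

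MicroRNAs of stress and inflammation had a similar share, with 11 of 17 (64.7%, 41.3 to 82.7%) at 5 of 10 loci, but a lower median fold of 4.33. Mir212 and Mir132, known targets of CREB, shared a summit with a fold of 21.6 upstream and one with 7.70. Mir24-1 had a summit inside the hairpin gene with a fold of 23.8, shared with Mir27b, and Mir23b of the same cluster, in Aopep, had 8.42. The sister cluster of Mir23a, Mir27a and Mir24-2 had folds of 3.61 to 4.33. Mir29a and Mir29b-1 shared a summit of 3.85, while the strongest summit nearby, with 86.8, lay 609 bp from Mir29a. Mir22 had a summit of 3.85 inside the hairpin gene, with one of 233 lying 2215 bp away.

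Mir21a, a microRNA raised in inflamed colon and known as an AP-1 target in other cells, was not among the members. Its hairpin (chr11:86584067-86584158, minus strand, near the end of Vmp1) had no summit within 500 bp, and the nearest was 1054 bp upstream with a fold of 4.33. Within 10 kb it had 26 summits, against a median of 2 for all autosomal microRNA genes, of which 64.7% had at least 1. The strongest were at 166 (3400 bp downstream) and 142 (3059 bp upstream). Mir155, Mir146, Mir146b, Mir29b-2 and Mir29c had no summit in the window either.

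Of the 10 let-7 genes, which repress growth genes, 3 had a summit: Mirlet7i with a fold of 14.9, Mirlet7b with 10.1 and Mirlet7c-2 with 8.66. The last 2 lay in 1 region of 13026 bp with 24 summits. None of the 9 genes of the Myc and proliferation list, the Mir17 to Mir92-1 cluster and the Mir25, Mir93 and Mir106b cluster in Mcm7, had a summit within 500 bp (0 to 29.9%). The nearest summit to Mir17 was 1330 bp upstream with a fold of 21.2.

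MicroRNAs known from tissues other than epithelium had summits at shares whose intervals contained that of all microRNA genes. On the muscle list it was 0 of 10 (0 to 27.8%), which includes the Mir1a, Mir133 and Mir208 genes. On the neural list it was 3 of 18 (16.7%, 5.84 to 39.2%), with folds of 11.1 at Mir219a-1, 8.18 at Mir9-1 and 3.61 at Mir138-1. Of the 6 haematopoietic genes, Mir150 alone had a summit, with a fold of 5.53, and of the 7 mesenchymal and endothelial genes Mir145a alone, with 13.0. The median number of summits within 10 kb was 0 for both the muscle and the neural list, 2 for the haematopoietic and for the mesenchymal and endothelial list, 12.5 for the epithelial list and 14 for the stress list, against 2 for all autosomal microRNA genes. Read against the 20.1% of all autosomal microRNA genes, the intervals of the muscle, neural, haematopoietic, mesenchymal, let-7 and Myc lists contained that share, and those of the epithelial and stress lists lay above it. These intervals treat genes of a cluster that share a summit as independent, so they are too narrow. The lists were also drawn up with earlier results of these data known, so the intervals describe the lists and test nothing. As loci it was 10 of 14 for the epithelial and 5 of 10 for the stress list, against 201 of 895, with no interval computed for the lists. The reading by genes was lost for the epithelial list without regions wider than 3000 bp, where its interval of 10.1 to 43.4% contained the 16.8% of all. For the stress list it was lost with 1 summit kept per region, where 29.4% (13.3 to 53.1%) stood against 14.3% of all. It was not lost without wide regions (58.8% against 16.8%, with an interval above it). These settings were chosen for the stress list after seeing the data. Its shares at the limits on −log10 q and at other distances are not reported here. Mir22, Mir29a, Mir29b-1, Mir27a and Mir24-2 rested only on summits with −log10 q below 5, at 4.90 or 4.21. At a limit of 5 these genes of the stress list would have no summit, so its share would fall.

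**Figure D5:**
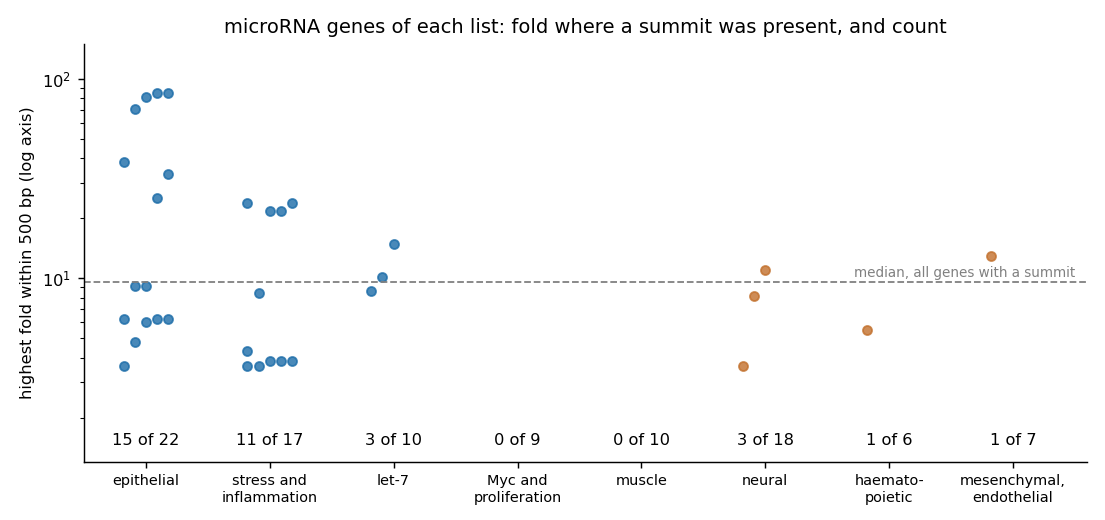
Highest fold within 500 bp (log axis) for each listed microRNA gene with a summit, by list, with the count of genes with a summit over the list's size under each group; blue marks epithelial, stress, let-7 and Myc lists, orange the lists of other tissues, and the dashed line is the median of all genes with a summit (9.62). The epithelial list reaches 84.9, and no muscle gene has a point.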

How the data were processed

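Per the submitters' processing notes, Bowtie2 and MACS2 were used with the mm10 build; not given in the sources used here are their versions and which of the 4 libraries were called. The deposited list has no column per library. The authors' score, their −log10 p-value, the −log10 q-value beside it and the deposited summit offset were read as given. The authors' fold enrichment is a linear ratio; all folds were whole multiples of 0.2405, within 0.05 steps, so pileups in whole fragments were recovered from it, and depth per library is unknown. No columns were left unmatched.

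Genes came from an NCBI table of GRCm38.p6, 1-based, without strand or exons; strands and sequences came from RefSeq tables. A summit was a member within 500 bp of a microRNA gene. Boundary meant within 1000 bp of either end of a protein-coding gene, by the gene's midpoint or the summit. Shares have 95% Wilson intervals, pileups exact Poisson intervals and medians order-statistic intervals, for counting error only, since PCR copies are not independent molecules. Assignment was tested on simulated data. Python packages were numpy 2.4.6, pandas 2.3.3, scipy 1.17.1 and matplotlib 3.10.9.

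The members and the lists of microRNAs were chosen with earlier results of these data known. Named were listed microRNAs with a summit, with values for the strongest of the larger lists, the 10 microRNA genes with the highest fold and the 3 pairs at each side of 500 bp; the 5 with the most summits could not be picked, since 24 tied. Mir21a and the other listed genes without a summit are described with values chosen after these were seen.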

Additional observations from a re-analysis of the deposited data

How the results depend on the processing

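No paired analysis was possible because the list holds no value per library, and for the same reason no library could be left out. Of 69 results under other settings, 34 stayed within the main interval (counts within 1.5 times) and 35 moved. The share of microRNA genes with a summit was 16.7% at −log10 q of at least 5, 14.5% at 10, 14.3% with 1 summit per region, 16.8% without regions wider than 3000 bp, and 12.7%, 25.7% and 34.5% at 200, 1000 and 2000 bp. For hosted genes the moved shares were 15.6% and 12.9% at the q limits, 14.1% with 1 summit per region, and 11.3%, 25.4% and 35.3% by distance. For intergenic genes they were 13.4% at −log10 q of 10, 10.6% with 1 summit per region, 12.8% without wide regions, 11.9% at 200 bp and 28.7% at 2000 bp. The median fold was 11.1 and 13.2 at the 2 q limits, 11.1 with 1 summit per region and 7.22 at 2000 bp. The number of summits was 153 with 1 per region, and 153, 553 and 965 by distance; the number of genes was 144 at 200 bp and 392 at 2000 bp. The boundary share was 48.0% at −log10 q of 10, 36.4% at 2000 bp, and 29.4% and 54.8% with boundaries of 500 and 2000 bp. The epithelial share was 31.8% with 1 summit per region and 22.7% without wide regions, and the muscle and neural share, 10.7%, was 3.57% at 200 bp. Wider windows and boundaries take in more, and narrower ones less, by construction. Limits on −log10 q, 1 summit per region and leaving out wide regions only remove summits. The counts and the shares of genes with a summit can therefore only fall there. With a single background level, a limit on −log10 q removes the lowest folds, so the median fold rises by construction too. The cause of the other moves was not tested. In all 8 settings that change summits or distance, the main one included, the epithelial share was above that of all microRNA genes and the muscle and neural share below it. With a pileup of 10 to 939 fragments per summit, the weakest summits have wide counting intervals.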

Other observations

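Chromosome X was outside the rule. There, 5 of 92 microRNA genes had a summit within 500 bp (5.43%, 95% Wilson interval 2.34 to 12.1%), at folds of 4.09 (Mir503 and Mir322, shared), 5.53 (Mir5132), 6.97 (Mir5132 and Mir718, shared) and 10.3 (Mir672). Among the autosomes the share ran from 6.8% on chromosome 2, which holds the Sfmbt2 cluster, to 35.2% on chromosome 11. These are values of single chromosomes in 1 list, with counting error only.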
